A study of Mus musculus with 8 samples.

Results

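The 10 genes described here carry and restrain the TGF-β signal: the ligands Tgfb1 and Tgfb3, the receptors Tgfbr1 and Tgfbr2, the SMAD genes Smad2, Smad3, Smad4 and Smad7, and the SKI family repressors Ski and Skil. They were taken by symbol from a table of read counts that lists 16308 genes in naive and Th17 cells, and all 10 were listed and tested. TGF-β dimers are made as latent precursors that must be cleaved and released before they bind the type II receptor TGFBR2, which recruits and phosphorylates the type I receptor TGFBR1. TGFBR1 phosphorylates SMAD2 and SMAD3, which join SMAD4 and enter the nucleus, where SKI and SKIL can hold SMAD target genes silent, while SMAD7 blocks the receptor and is itself a target of the pathway. In CD4 T cells the pathway restrains activation of naive cells, and together with IL-6 TGF-β drives Th17 differentiation, whereas without IL-6 it favours regulatory T cells.

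The series holds 8 RNA-seq libraries of CD4 T cells from C57BL/6 mice, 2 in each of 4 groups, described by the submitters as independent biological replicates. The file headers give naive library 2 and Th17 library 2 the same number, whose meaning is not stated, so whether these come from 1 animal is not known. Headers of the naive and Th17 counts also carry the words WT and Malat1, which no label explains. Age and sex are not given in the sources used here. Naive CD4+ cells were untreated. Th17 cells had been stimulated for 72 h through anti-CD28 (1 µg/mL) and anti-CD3ε (0.25 µg/mL), with IL-6 (20 ng/mL) and TGF-β (0.1 ng/mL) in the medium, although the growth protocol gives a TGF-β range of 0.1-5.0 ng/mL. A further wild-type Th17 group (WT) and a DDX5-deficient Th17 group (DDX5∆T) had the same treatment, and for these 4 libraries only RNA editing sites were used here. Added TGF-β, receptor stimulation, IL-6 and time in culture differed together between naive and Th17 cells, and their shares in any difference cannot be told apart.

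Reads on genes came to 20426728 and 16154625 in the naive libraries and to 26624436 and 11768994 in the Th17 libraries. Levels are given as CPM, a gene's reads relative to the size of its library after TMM scaling. Cd3e, a chain of the T cell receptor complex, was at 541 and 680 CPM in naive and at 151 and 120 in Th17 cells, and Cd4 at 1273 and 1411 against 627 and 559. Ccr7, which encodes a homing receptor of naive T cells, was at 737 and 713 CPM in naive cells and at 502 and 489 in Th17 cells. Il17a had no read in naive cells and 1242 and 924 CPM in Th17 cells. Th17 library 2 stood apart: 270 genes were at 10 CPM or more there and at least 20 times their level in Th17 library 1, and the reverse held for 0 genes. Col1a1, a collagen chain of fibroblasts, was at 1.21 CPM in Th17 library 1 and 470 in library 2, and Kdr, a receptor of endothelial cells, at 0 and 104. None of the 10 genes was among those 270, but that cut-off cannot show smaller differences between the Th17 libraries. The summed level of the 8 fibroblast and endothelial markers was 307 to 351 CPM in naive cells, nearly all of it Pecam1, and 30.1 and 811 in the Th17 libraries. Summed B cell markers were at 2.33 to 3.31 CPM in naive and 46.0 to 52.6 in Th17 cells, there nearly all from Ebf1. Ms4a1 was at 0.0758 CPM or less in every library. Of the 3 B cell markers tested, Ebf1 was called higher and Cd79a lower. Cd79a was at 1.33 and 1.41 CPM in naive and at 0.139 and 0.455 in Th17 cells. Summed myeloid markers were at 12.0 to 14.5 CPM in naive and 8.57 to 8.64 in Th17 cells, and summed CD8 and NK markers at 92.5 to 108 against 53.7 to 54.9. Members of the myeloid list went both ways, with 5 of the 8 tested lower and Cd14 alone higher, at 0.0531 and 0 CPM in naive and 3.26 and 2.65 in Th17 cells. So did the CD8 and NK list, with 3 of the 6 tested lower and Nkg7 alone higher. Nkg7 was at 5.84 and 5.00 CPM in naive and 27.9 and 28.7 in Th17 cells. The part of B cells, myeloid cells, CD8 cells and NK cells in the results was not tested. Without Th17 library 2, all 7 calls described here for the 10 genes were kept and Tgfbr1 was also called lower. A group left with 1 library is assumed in such a fit to vary like the other group, here the naive pair, so these calls carry no replicate check among Th17 cells. The part of stromal RNA in the results was not tested.

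**Figure D1:**
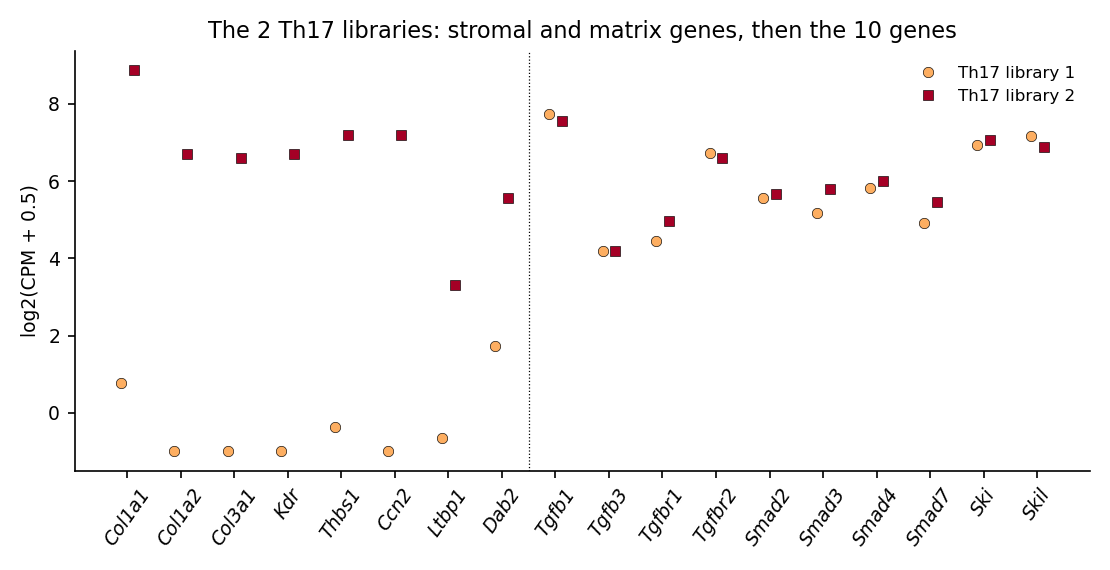
Level of each gene, as log2(CPM + 0.5), in Th17 library 1 (circles) and Th17 library 2 (squares), for 8 stromal and matrix genes on the left of the dotted line and the 10 TGF-β genes on the right. Col1a1 is at 1.21 CPM in the first and 470 in the second. The points of the 10 genes lie closer together, with Smad3 at 35.3 and 55.2 CPM and Skil at 144 and 117. Tgfb1, Tgfb3, Tgfbr2 and Skil are higher in the first and the other members in the second.

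Of the 10 genes, 7 differed between Th17 and naive cells in the quasi-likelihood test of edgeR, with Benjamini-Hochberg adjusted p under 0.05, 1 higher and 6 lower in Th17 cells. Tgfbr2, Smad7, Ski, Smad4, Smad3 and Smad2 were lower, Tgfb3 was higher, and Tgfb1, Tgfbr1 and Skil did not pass the test. Over all 11989 genes tested, 65.1% passed, with 34.3% higher and 30.7% lower, so that the members' 7 calls lay near the background (62.6% of genes passed with DESeq2, which called 8 of the 10). The median log2 fold change was -0.90 over the 10 genes and 0.06 over all genes tested. The libraries of the 2 groups did not overlap for 9 of the 10 genes, 7 lower and 2 higher in Th17 cells, and for 85.0% of all genes tested, 40.8% lower and 44.1% higher. In bulk RNA, fewer cells carrying a transcript and less of it per cell cannot be told apart.

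**Figure D2:**
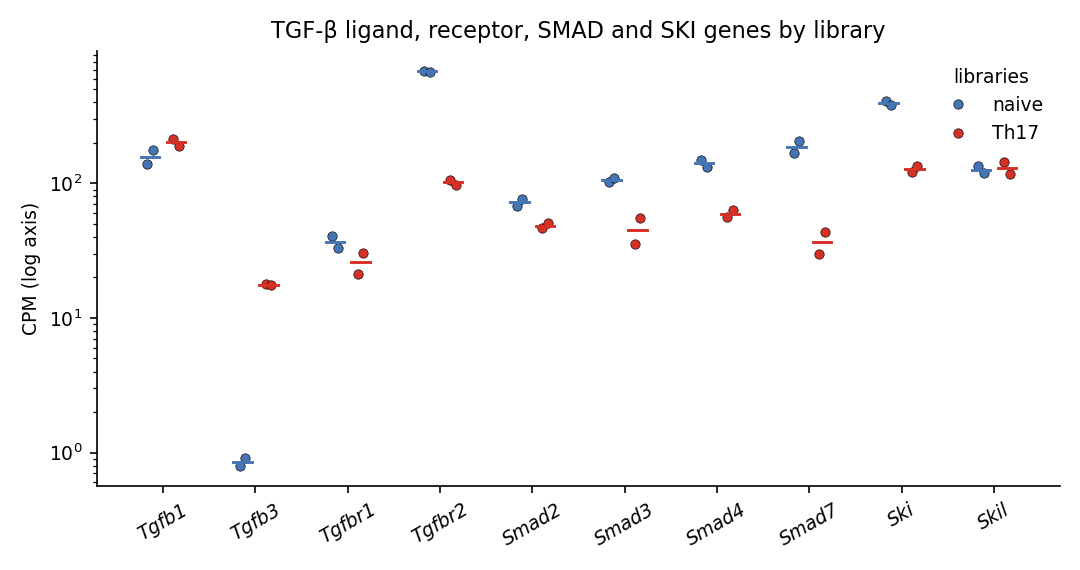
CPM of the 10 genes on a log axis in each naive (blue) and Th17 (red) library, with a bar at each group's mean. The blue and red points are farthest apart for Tgfb3, at 0.796 and 0.915 against 17.8 and 17.6 CPM, and interleave only for Skil.

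The ligand genes differed in size of change. Tgfb1, on chromosome 7 (GRCm38, 25687002 to 25705077), encodes the main TGF-β of immune cells. It was at 139 and 177 CPM in naive cells and at 214 and 189 in Th17 cells. The Th17 libraries were both above the naive ones, but the log2 fold change of 0.36 (SE 0.17) had an adjusted p of 0.10 in edgeR. The call depended on the analysis: Tgfb1 was called higher with upper-quartile factors (log2 fold change 0.47, adjusted p = 0.041), with library size only (0.66, adjusted p = 0.010) and with DESeq2 (0.38, adjusted p = 0.043), which also differs in its test and filter. The authors' deposited table gave 0.39 with an adjusted p of 0.0737.

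Tgfb3, on chromosome 12 (86056745 to 86079041), encodes an isoform that Th17 cells themselves can make. It had 15 and 13 reads in naive cells and 514 and 232 in Th17 cells, or 0.796 and 0.915 CPM against 17.8 and 17.6. The Th17 mean was 20.7 times the naive mean, and the log2 fold change of 4.37 (SE 0.30) had an adjusted p of 3.6e-06 in the edgeR quasi-likelihood test. It was called higher in all 10 alternative analyses. Exons of Tgfb3 overlap those of Gm37804 and Gm48008 on the opposite strand, and because use of strand in counting was not stated, reads of these genes cannot be told from those of Tgfb3.

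Per kilobase of exon, Tgfb1 exceeded Tgfb3 by 117 and 129 times in naive cells and by 8.06 and 7.21 times in Th17 cells. The ratio was lower in both Th17 libraries, and Tgfb1 remained the higher of the pair in each. The exons of Tgfb1 together span 5042 bases but its longest transcript 2573, and per kilobase of longest transcript the ratios were 229 and 254 in naive cells and 15.8 and 14.1 in Th17 cells. The summed level per kilobase of Tgfb1 and Tgfb3 was 27.7 and 35.3 CPM in naive cells and 47.8 and 42.6 in Th17 cells. Per kilobase of longest transcript this sum was 54.1 and 68.9 against 88.6 and 78.6.

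Around these ligands, 16 of 25 measured genes of ligands, latency and activation were tested, and 13 were higher and 1 was lower in Th17 cells. The called share was 87.5% and the median log2 fold change 4.47. Over all genes tested, 65.1% were called and 34.3% were higher, with a median of 0.06. The filter on low counts favours genes that are high in 1 group, and 9 of the 25 had no read in naive cells. Tgfb2, another TGF-β ligand gene, was also higher, at 0.0531 and 0.422 CPM in naive cells and 5.31 and 7.80 in Th17 cells. Its log2 fold change was 4.84 (SE 0.77), with 1 and 6 naive reads, and it was called in all 10 alternatives. Inhba, which encodes the activin A chain, was at 0.106 and 0.211 CPM in naive cells and at 761 and 455 in Th17 cells. Inha, the inhibin α chain, had no naive read and 6.70 and 7.05 CPM in Th17 cells, at least 37.1-fold higher against a floor of 3 reads in each naive library. Dcn, the TGF-β-binding proteoglycan decorin, also had no naive read and was at least 13.1-fold higher, at 2.05 and 2.80 CPM. With genes that had no naive read set at that floor, the median of the list was 4.39, and the medians given for the other pathway lists were the same. Furin, which encodes the protease that cleaves TGF-β precursors, was at 72.1 and 63.4 CPM in naive cells and 1577 and 1302 in Th17 cells, a log2 fold change of 4.41 (SE 0.22). Itgav, the αv chain of integrins that release latent TGF-β, was at 26.2 and 19.4 CPM against 203 and 163, a log2 fold change of 3.00 (SE 0.21). Nrros, whose product tethers latent TGF-β1, was the gene that went down, from 108 and 123 CPM to 28.4 and 19.8, with a log2 fold change of -2.25 (SE 0.21). Lrrc32, also of this list, was among those that rose, from 0.106 and 0.0704 CPM to 6.38 and 11.2. Its log2 fold change was 6.50 (SE 0.60), with 2 and 1 naive reads.

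The receptor genes were both lower in mean level, and Tgfbr2 passed the test. Tgfbr2, on chromosome 9 (116084293 to 116175360), encodes the ligand-binding type II receptor. It was at 689 and 669 CPM in naive cells and at 106 and 97.0 in Th17 cells, so that the naive mean was 6.69 times the Th17 mean. With a log2 fold change of -2.74 (SE 0.17), Tgfbr2 had an adjusted p of 2.3e-06 in the edgeR quasi-likelihood test and was called in all 10 alternatives. Of all genes tested, 3.51% had a lower log2 fold change than Tgfbr2.

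Tgfbr1, on chromosome 4 (47353222 to 47414931), encodes the type I receptor kinase. It was at 40.7 and 32.9 CPM in naive cells and at 21.2 and 30.6 in Th17 cells. The groups did not overlap, but Th17 library 2 lay close to naive library 2, and the log2 fold change of -0.51 (SE 0.21) had an adjusted p of 0.061 in edgeR. The value turned on which Th17 library was used: with library 1 alone the log2 fold change was -0.79 (adjusted p = 0.0016) and with library 2 alone -0.30 (adjusted p = 0.25), with the spread taken from the naive pair in both fits. The authors' deposited table gave a log2 fold change of -0.50 with an adjusted p of 0.135.

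The receptor pair became less uneven. Per kilobase of exon, Tgfbr2 was 13.5 and 16.2 times Tgfbr1 in naive cells and 3.98 and 2.53 times in Th17 cells, with no overlap. The summed receptor level per kilobase was 90.4 and 86.7 CPM in naive cells and 16.2 and 16.5 in Th17 cells.

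Of 17 measured genes of receptors and coreceptors, 16 were tested, and 7 were higher and 5 lower in Th17 cells. The called share was 75.0%, against 65.1% of all genes tested, and the median log2 fold change 1.24. Acvr1b, the type I receptor of activin, was at 106 and 97.3 CPM in naive cells and at 19.1 and 24.9 in Th17 cells, a log2 fold change of -2.21 (SE 0.18). Acvrl1, the type I receptor ALK1, was at 75.5 and 82.4 CPM against 15.3 and 19.9, a log2 fold change of -2.17 (SE 0.18). The coreceptor betaglycan, Tgfbr3, was also lower, at 126 and 117 CPM against 54.4 and 38.9. Among the receptor genes that rose, Acvr1 was at 0.106 and 0.211 CPM in naive cells and at 12.6 and 11.8 in Th17 cells, and Bmpr1a, a type I receptor for BMPs, at 1.59 and 1.69 against 19.0 and 20.9. Cd109, a TGF-β coreceptor, had no naive read and was at least 16.4-fold higher, at 2.88 and 3.18 CPM. Fkbp1a, whose product FKBP12 holds type I receptors inactive, had a log2 fold change of 1.51 (SE 0.19).

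Tgfbr1 was the one gene of the 10 with an A-to-I RNA editing site in the deposited site lists, a change of adenosine to inosine that is read as G. The site lies at position 47412402 of chromosome 4, in the 3′ UTR, and is shown because it is the only sequence feature of the 10 genes that these files measure. The 29 bases around it were read from the GENCODE M21 transcript on GRCm38 (mm10), plus strand, chr4:47412388-47412416, 5′ to 3′, with the edited base in capitals.
Tgfbr1 site: gagatgttgaacatAgtgataccaatccc
A T precedes the edited A and a G follows it. Among the 507 naive sites that could be placed in transcripts, T was the base before in 43.4% and G the base after in 52.9%, so that each neighbour is the most frequent one at its position. The site is 1625 bases past the stop codon in a 3′ UTR of 4154 bases, and it lies in 1 of the 5 annotated Tgfbr1 transcripts, 269 bases beyond the end of the other coding transcripts.

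Editing at the Tgfbr1 site was 12.0% in naive library 1 and 26.7% in naive library 2, a mean of 19.3% ± 10.4 (SD, n = 2). The mean lay near the median of 18.9% over all 571 sites listed for naive cells. The gap between the naive libraries, 14.7 percentage points, was larger than at 85.5% of naive sites. No coverage was given for the site, so the depth behind these values is unknown. The site was not listed for Th17 cells, nor among the 355 sites of the WT and DDX5-deficient table. Tgfbr1 had 767 and 467 reads in naive and 612 and 404 in Th17 cells over the whole gene, and because a site is listed for both libraries of a group or for neither, its editing level in Th17 cells is not known. No difference in editing was tested.

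Other genes of the pathway lists with naive sites were Map3k7, Rhoa, Sin3a and Traf6, with 6 sites between them. Rhoa, which encodes a small GTPase activated by TGF-β outside the SMAD route, had the only site listed in both cell types, at position 108337130 of chromosome 9 in its 3′ UTR. Editing there was 73.3% and 81.3% in naive cells and 21.9% and 15.6% in Th17 cells. The groups did not overlap, and the two-sided exact permutation p was 0.333, the smallest that 2 against 2 libraries allow. At the same position it was 21.4% and 25.2% in WT Th17 cells and 25.9% and 19.9% in DDX5-deficient Th17 cells, whose ranges overlapped.

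All 4 SMAD genes were lower in Th17 cells. Smad2, on chromosome 18 (76241580 to 76310963), encodes a SMAD that the receptor phosphorylates. It was at 68.4 and 76.0 CPM in naive cells and at 46.8 and 50.4 in Th17 cells. The log2 fold change of -0.57 (SE 0.15) had an adjusted p of 0.0092 in the edgeR quasi-likelihood test. This call was lost with library size only (log2 fold change -0.27, adjusted p = 0.12) and without naive library 2 (adjusted p = 0.056).

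Smad3, on chromosome 9 (63646767 to 63757994), encodes the receptor-activated SMAD that binds DNA directly. It was at 102 and 109 CPM in naive cells and at 35.3 and 55.2 in Th17 cells. The Th17 libraries differed from each other by more than the naive ones did, yet both were below them. The log2 fold change of -1.23 (SE 0.22) had an adjusted p of 0.0017 in edgeR, and the call was lost without naive library 1 (adjusted p = 0.097) or without naive library 2 (adjusted p = 0.10).

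Smad4, on chromosome 18 (73639009 to 73703780), encodes the SMAD shared by TGF-β and BMP signals. It was at 149 and 132 CPM in naive cells and at 56.3 and 63.1 in Th17 cells. Smad4 had a log2 fold change of -1.24 (SE 0.16) and an adjusted p of 1.6e-04 in the edgeR quasi-likelihood test and was called in all 10 alternatives.

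Smad7, on chromosome 18 (75367529 to 75395935), encodes the inhibitory SMAD. It was at 167 and 206 CPM in naive cells and at 29.9 and 43.8 in Th17 cells, a naive mean of 5.07 times the Th17 mean. Smad7 had a log2 fold change of -2.35 (SE 0.22) and an adjusted p of 4.8e-05 in the edgeR quasi-likelihood test, again called in all 10 alternatives. Among all genes tested, 4.83% had a lower log2 fold change than Smad7.

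Per kilobase of exon, Smad3 was 2.36 and 2.28 times Smad2 in naive cells and 1.20 and 1.73 times in Th17 cells. Smad7 was 0.923 and 1.28 times Smad4 in naive cells and 0.436 and 0.570 times in Th17 cells, so that the inhibitory SMAD was below the shared SMAD in both Th17 libraries and on either side of it in the naive ones. The summed level of the 4 SMAD genes per kilobase was 103 and 110 CPM in naive cells and 33.5 and 42.4 in Th17 cells. These ratios and sums are descriptions and were not tested.

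Of the 8 SMAD genes measured, 6 were tested and all 6 were lower in Th17 cells, including the BMP-activated Smad5 and Smad1. Over all genes tested, 30.7% were called lower. Smad5 was at 74.1 and 53.3 CPM in naive cells and at 18.1 and 24.5 in Th17 cells, a log2 fold change of -1.59 (SE 0.22). Smad1 had a log2 fold change of -0.63 (SE 0.19), and its call was lost with library size only and without naive library 2. Smad6 and Smad9 did not pass the filter on low counts and were not tested. Smad9 had 0 reads in both naive libraries and 9 and 0 in Th17 cells. Smad6 had 0 and 2 reads in naive cells and 1 and 75 in Th17 cells, nearly all of them in Th17 library 2.

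**Figure D3:**
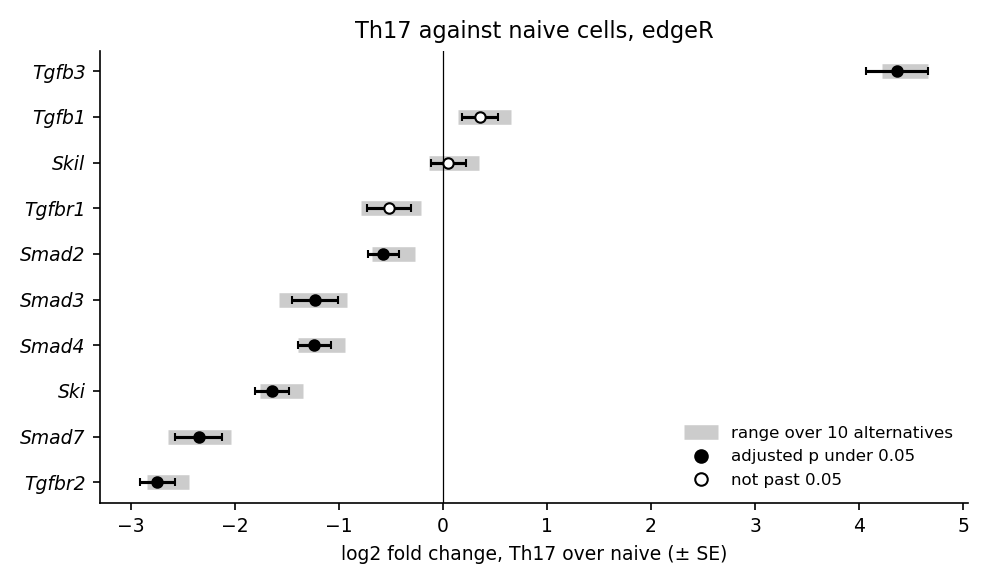
Th17 over naive log2 fold change from edgeR for the 10 genes, with bars of 1 SE; filled points have an adjusted p under 0.05, and grey bands span the values under 10 alternative analyses. The bands of Tgfbr2, Smad7, Ski, Smad4, Smad3 and Smad2 lie left of 0, and that of Skil crosses it.

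The SKI family genes behaved unequally. Ski, on chromosome 4 (155154075 to 155222592), encodes a corepressor that binds SMAD complexes. It was at 411 and 384 CPM in naive cells and at 121 and 134 in Th17 cells, a naive mean of 3.12 times the Th17 mean. Its log2 fold change of -1.64 (SE 0.16) had an adjusted p of 3.4e-05 in the edgeR quasi-likelihood test and was called in all 10 alternatives.

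Skil, on chromosome 3 (31095058 to 31122577), encodes the related corepressor SnoN. It was at 133 and 118 CPM in naive cells and at 144 and 117 in Th17 cells. It was the one member whose groups overlapped. The log2 fold change of 0.05 (SE 0.17) had an adjusted p of 0.79 in edgeR, ranged from -0.14 to 0.35 over the alternatives, and was called in 0 of them. Per kilobase of exon, Ski was 5.37 and 5.65 times Skil in naive cells and 1.47 and 1.99 times in Th17 cells.

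Of 22 measured SMAD corepressors and cofactors, 21 were tested, with 6 higher and 11 lower in Th17 cells. The called share was 81.0%, against 65.1% of all genes tested, and the median log2 fold change -0.63. Ctbp1, a general corepressor, was at 284 and 318 CPM in naive cells and at 135 and 134 in Th17 cells, a log2 fold change of -1.16 (SE 0.16). Its paralog Ctbp2 was at 0.265 and 0.141 CPM against 32.5 and 26.7. Kat2b and Crebbp, acetyltransferases that coactivate SMADs, had log2 fold changes of -1.55 (SE 0.18) and -1.47 (SE 0.32). The naive libraries differed widely for Crebbp, at 184 and 112 CPM, against 43.2 and 64.0 in Th17 cells. Runx3, a RUNX factor that partners SMADs, was at 89.0 and 94.6 CPM in naive cells and at 233 and 252 in Th17 cells, and Tgif1, a SMAD corepressor, at 20.1 and 18.2 against 49.5 and 44.4.

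The order of the 10 genes by level per kilobase of exon changed between the cell types. In naive cells Tgfbr2 was highest at 82.9 ± 1.73 CPM per kilobase (SD, n = 2), followed by Ski at 71.5 ± 3.43, Smad7 at 41.3 ± 6.07, Smad4 at 37.9 ± 3.15 and Tgfb1 at 31.2 ± 5.33. Smad3 at 19.0, Skil at 13.0, Smad2 at 8.22, Tgfbr1 at 5.63 and Tgfb3 at 0.253 came after them. Among neighbours in this order, the naive libraries overlapped only for Smad7 and Smad4. In Th17 cells Tgfb1 was highest at 40.0 ± 3.57 CPM per kilobase, followed by Ski at 22.9 ± 1.57, Smad4 at 16.1 ± 1.30, Skil at 13.5 ± 1.98 and Tgfbr2 at 12.4 ± 0.773. Smad3 at 8.17, Smad7 at 8.15, Smad2 at 5.54, Tgfb3 at 5.23 and Tgfbr1 at 3.97 came last. Libraries of neighbours overlapped for Skil and Tgfbr2 and for Smad3 and Smad7. Tgfbr2 thus went from the first to the fifth place and Tgfb1 from the fifth to the first. Per kilobase of longest transcript, Tgfb1 was at 61.2 CPM in naive cells, in the third place above Smad7 and Smad4, and first in Th17 cells as before, and Skil passed Smad4 in Th17 cells.

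**Figure D4:**
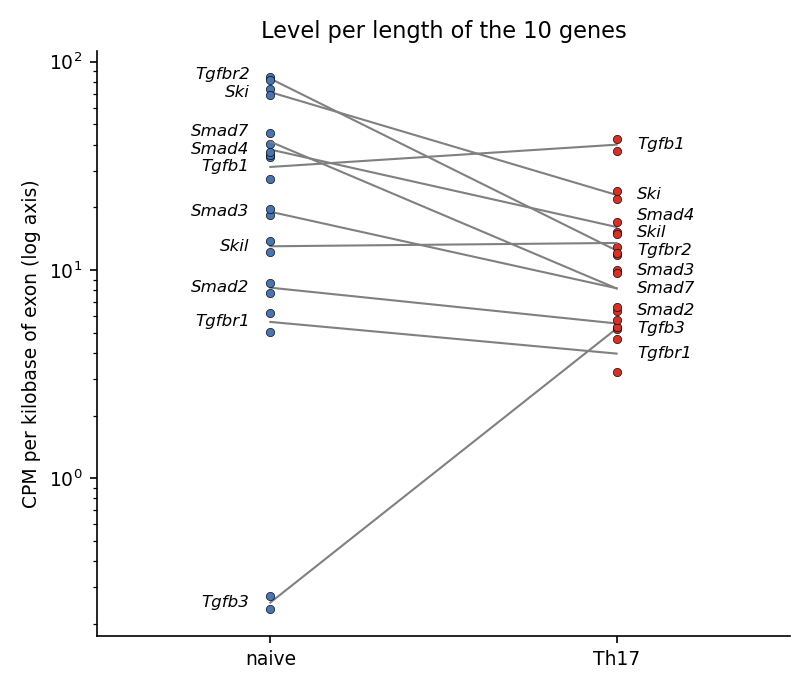
Level of the 10 genes as CPM per kilobase of exon on a log axis, with 1 point per library in naive (left) and Th17 cells (right) and lines joining the group means. The lines of Tgfb1 and Tgfb3 go up, that of Skil is nearly flat and the others go down.

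The regulators that turn over receptors and SMADs went both ways. Of 25 genes tested, 6 were higher and 9 lower in Th17 cells. The called share was 60.0%, against 65.1% of all genes tested, and the median log2 fold change -0.05. Smurf1 and Smurf2, the ubiquitin ligases that SMAD7 brings to the receptor, were lower: Smurf2 was at 136 and 135 CPM in naive cells and at 38.6 and 65.7 in Th17 cells, a call lost without either naive library, and Smurf1 had a log2 fold change of -1.30 (SE 0.19). Arl4c, a small GTPase of that list, was at 716 and 676 CPM against 92.7 and 65.3. Pmepa1, a feedback inhibitor induced by TGF-β, was at 21.2 and 16.1 CPM in naive cells and at 106 and 76.5 in Th17 cells, a log2 fold change of 2.29 (SE 0.22). Of 19 kinases and adaptors outside the SMAD route, 7 were higher and 6 lower, a split that was 6 and 4 without Th17 library 2 and 7 and 2 with library size only. In this list 68.4% were called, near the 65.1% of all genes tested. Traf4 was highest among those that rose in it, with a log2 fold change of 1.41 (SE 0.17). Tab1, a partner of the kinase TAK1, was the lowest, at -1.31 (SE 0.19).

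Of 31 measured genes known to respond to TGF-β, 28 were tested, and 18 were higher and 5 lower in Th17 cells. The called share was 82.1%, against 65.1% of all genes tested, and the median log2 fold change 4.06. The list holds Smad7, Ski and Skil themselves. Junb, an AP-1 subunit, was at 166 and 286 CPM against 1006 and 981, and Id2, an inhibitor of bHLH factors, had a log2 fold change of 2.25. Foxp3, the regulator of regulatory T cells, was at 7.64 and 5.84 CPM in naive cells and at 0.104 and 0.0758 in Th17 cells, a log2 fold change of -6.07 (SE 0.58). Of the 10 marker genes of regulatory T cells, Foxp3 and Gpr83 were lower and 7 were higher (median log2 fold change 2.55), among them Il2ra, the IL-2 receptor α chain, at 2.44 and 2.82 CPM against 3225 and 2455, and Ctla4, an inhibitory receptor, at 5.09 and 3.59 against 1837 and 1341. Ldlrad4, which like Pmepa1 is both in the list of responding genes and among the turnover regulators, was lower. Its log2 fold change was -1.72 (SE 0.24), and it was called in all 10 alternatives. Smad7, Ski and Ldlrad4 were thus lower in the same libraries in which Pmepa1 and Junb were higher. Of the responding genes, Ccn2 was at 0 CPM in Th17 library 1 and 145 in library 2, and Ccn1, called higher, at 35.2 and 79.8. Thbs1, an activator of latent TGF-β, was at 0.278 and 147 CPM.

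Over the 7 lists together, 124 genes were tested, 54 higher and 40 lower in Th17 cells (75.8% called, median log2 fold change 0.36). Without the 10 members these were 114 genes, 53 higher and 34 lower (76.3%, median 0.53). Over all genes tested, 65.1% were called, with a median of 0.06. The lists were chosen with earlier results of these data known. Without Th17 library 2, the lists gave 56 higher and 39 lower, and 89 of the 94 calls were kept.

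**Figure D5:**
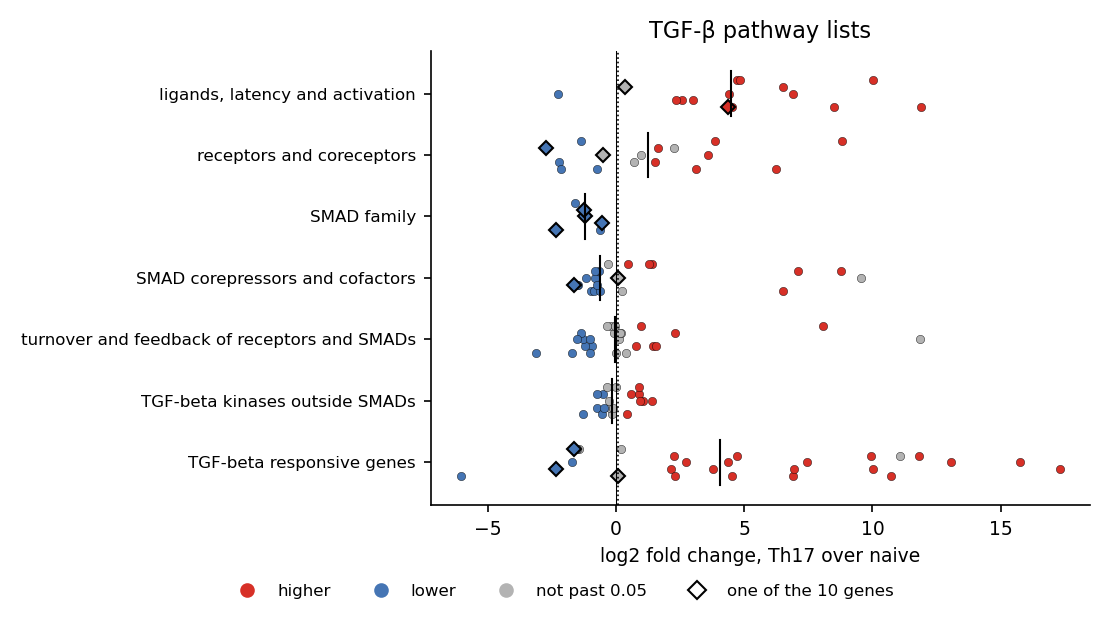
Th17 over naive log2 fold change of each tested gene of 7 TGF-β pathway lists, coloured by call, with diamonds for the 10 genes, short bars at each list's median and a dotted line at the median of all genes tested. The 6 tested SMAD genes lie left of 0, and 13 of the 16 ligand, latency and activation genes are called higher.

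The genes whose levels over the 4 libraries were most like those of a called member were found by distance between centred log2(CPM + 0.5) values, which describes likeness over 4 libraries and nothing more. The added 0.5 CPM shrinks differences of genes with few reads, so a near gene can have another fold: Cd79a, nearest to Smad3, had a log2 fold change of -2.32 against -1.23 for Smad3, and Chrm3, nearest to Smad7, -3.74 against -2.35. Likeness was also common, with 670 genes within a distance of 0.25 of Smad2 and 8 within that of Smad7. Tmc6, Btbd11 and Arhgap9 lay nearest to Tgfbr2, Tmc6 at a distance of 0.0313. For Tgfb3 they included Lrrc49, at 0.0909, and Ptgr1. For Smad7 they were Chrm3, Frat2 and Guca1b, with Chrm3 at 0.132. Tusc2, Map7 and Dhx15 were nearest to Smad2, Cd79a, Dnajc28 and Dhx40 to Smad3, Ppox, Mbtps1 and Zfp748 to Smad4, and Mss51, Cd101 and 1700017B05Rik to Ski.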

How the data were processed

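Ribosome-depleted RNA of mouse CD4 T cells had been sequenced, and the authors used STAR 2.6.1a, featureCounts, DESeq2 1.18.1 and mm10, per the submitters' processing notes. The deposited table gave raw counts per gene for 2 naive and 2 Th17 libraries. Columns were mapped to titles by the cell type and number in the file headers, which the sample descriptions also hold. A normalized signal was given as well, the count divided by 1 size factor per library by the authors. The log2 fold change and p-value columns in that table are the authors' own, per the file headers. Editing was deposited as a fraction of reads at each site from SAILOR (confidence 0.99), with a confidence score and coverage only at sites listed for Th17 cells; it is printed as percent. Settings, annotation and use of strand in counting are not given in the sources used here.

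Counts were filtered with filterByExpr and tested with edgeR 4.0.16 in R 4.3.3 (TMM, quasi-likelihood, Benjamini-Hochberg over 11989 genes, threshold 0.05); the test was tried on simulated data. CPM are TMM-scaled. SD is over 2 libraries, which limits precision, as do counts as low as 13 reads for Tgfb3 in naive cells (404 or more for the other members). Floors cover counting error only. Exon lengths and coordinates came from GENCODE M21. The 10 genes and the gene lists were chosen with earlier results of these data known. Besides the members, genes were named by rule, in each list up to 3 called genes with the highest and 3 with the lowest log2 fold change, and called genes above 100 CPM; from these a selection is printed, and a few genes are not reported here. Tgfb2, Lrrc32, Tgfbr3, Bmpr1a, Smad1, Smad6, Smad9, Tgif1, Smurf1, Smurf2, Ccn2, Thbs1, Ms4a1, Col1a1 and Kdr were named after their values were seen. Alternatives were upper-quartile factors, library size only, DESeq2 1.42.0, no filter, a mean normalized count of at least 10, a replicate block and each library left out.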

Additional observations from a re-analysis of the deposited data

How the results depend on the processing

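Calls for Tgfbr2, Smad7, Ski, Smad4 and Tgfb3 held in all 10 alternatives, and no member called in the report changed sign in any of them. The number of members higher rose from 1 to 2, by Tgfb1, with upper-quartile factors (2), with library size only (2) and with DESeq2 (2), and the number lower ranged from 4 to 7 when single libraries were left out. Over all genes, 4116 were higher and 3684 lower; leaving out single libraries gave 2380 to 4847 higher, with the lowest counts without naive library 2 (2380) and without naive library 1 (2436). The cause of these changes was not tested, beyond the smaller number of libraries. Upper-quartile factors shifted the median log2 fold change of all genes by 0.11 and library size only by 0.30, and the latter split the calls into 5186 higher and 2619 lower. For the pathway lists, leaving out single libraries gave 40 to 64 higher and 30 to 39 lower. Taking the longest transcript as gene length kept 7 of 10 naive ranks, as Tgfb1 moved above Smad7 and Smad4, and 8 of 10 Th17 ranks, as Skil moved above Smad4. Each fit without 1 library takes the spread from the other group.

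Replicate numbers were not taken as pairs: same-numbered deviations correlated at -0.08 over 11989 genes, and the labels do not tie a number to an animal. A replicate block gave 4094 genes higher and 3644 lower, with 1 member higher and 6 lower, and 56 pathway genes higher and 40 lower.

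Minimum coverage and a stricter confidence score could not be applied to the Tgfbr1 editing site, for which neither was given; its level was 12.0% to 26.7% with 1 naive library left out. Depth limits the naive level of Tgfb3 most, which rests on 15 and 13 reads.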
